A study of Caenorhabditis elegans with 78 samples.

Results

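Sarcomere and muscle attachment genes were examined in whole young adult *C. elegans* of 6 strains. The set holds 40 genes chosen by name for their roles in the contractile apparatus. They are 6 giant or M-line proteins, 9 thick filament proteins, 14 thin filament proteins, 9 proteins of the muscle attachments and 2 calcium channels. The first group takes in *dim-1*, although that protein is found near dense bodies. All 40 were found by name among the 42048 genes of the count tables, and all 40 were among the 15641 genes with enough counts to be tested.

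In the obliquely striated body wall muscle of the worm, myosin-containing thick filaments slide past actin-containing thin filaments when calcium binds troponin. Thick filaments are anchored at M-lines and thin filaments at dense bodies, and both are tied through integrin to the basement membrane and thereby to the hypodermis and cuticle. Giant proteins of the titin family run along the filaments. The pharynx pumps food with its own muscle, which uses other myosin and troponin isoforms.

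The strains were mutants of histone demethylase genes that were grown at 25°C and collected as young adults in the third generation at that temperature. A quadruple mutant, named *jmjd-5;jmjd-3.1/2/3*, carried the *jmjd-5* allele *zr1234* with *gk384* in *jmjd-3.1*, *tm3121* in *jmjd-3.2* and *tm3197* in *jmjd-3.3*. A double mutant, named *jmjd-5;jmjd-1.2*, carried *zr1234* with the *jmjd-1.2* allele *zr1010*. The other strains were *jmjd-5(zr1234)* and *jmjd-1.2(zr1010)* alone, *jmjd-3.1/2/3*, a triple mutant with the 3 *jmjd-3* alleles above, and N2, the wild type, which carries none of these alleles. The study proposes that *jmjd-5* removes H3K36me2, and names *jmjd-1.2* and the *jmjd-3* genes as reported H3K27 demethylases. It found both H3K36me2 and H3K27me3 raised in *jmjd-5(zr1234)*. The question put to these genes is whether the RNA of the contractile apparatus differed between each mutant and N2, and between the compound mutants and *jmjd-5(zr1234)* alone. Each genotype was represented by 1 strain, and *zr1234* changes the catalytic domain without removing the gene, so that its own count checks no label. The *jmjd-1.2* gene had 1 to 13 counts per library in *jmjd-5;jmjd-1.2* and 1 to 3 in *jmjd-1.2(zr1010)*, against 896 to 1488 in N2. The *jmjd-3.1* gene had 48 to 208 counts in the quadruple mutant and 116 to 198 in *jmjd-3.1/2/3*, against 61 to 144 in N2, so that its total count does not separate these strains.

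Each strain had 4 RNA libraries, 24 in all, with 3087933 to 9906241 counts. The N2 libraries were shallow, with 3927979 to 6372354 counts, against 6431200 to 7565222 in *jmjd-5(zr1234)*. N2 cultures 2 and 4 differed by no more than counting noise (mean chi-square per gene 0.976), and *jmjd-5(zr1234)* cultures 3 and 4 by little more (1.03), whereas other pairs of 1 strain reached 1.11 to 18.7. Each of these pairs was summed and counted as 1 sample, which left 3 samples each for *jmjd-5(zr1234)* and N2 and 4 for every other strain. The study's methods name 4 independent cultures per strain, so the summing is a choice made here. In *jmjd-5(zr1234)* the next closest pair, cultures 1 and 4, stood at 1.11 and was kept apart. A fit without a summed pair leaves out both its libraries. In both compound mutants and in *jmjd-3.1/2/3*, the library of culture 2 stood apart from the other 3. Levels are given as counts per 1000000 (CPM) scaled by TMM normalization, listed by culture number with a summed pair in the place of its lower number. Differences are log2 fold changes with their standard error (SE). A gene is called higher or lower at an adjusted p under 0.05 over all tested genes, by edgeR's quasi-likelihood test with Benjamini-Hochberg adjustment. A stricter call, the threshold of the study, asks for an adjusted p below 0.01 with a change in either direction whose log2 value is 1 or more. Whole worms were sequenced, so that fewer muscle cells and less RNA per muscle cell cannot be told apart.

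The giant proteins *ttn-1*, *unc-89* and *unc-22* and the ryanodine receptor *unc-68* were higher in *jmjd-5(zr1234)* than in N2, by 2.19- to 4.23-fold. Of the 40 genes, 19 were higher and 0 lower in *jmjd-5(zr1234)*, at a rate among all tested genes of 35.8% higher and 26.2% lower. The 4 genes named above passed the stricter call as higher, which 16.1% of all tested genes did. The 19 were 5 of the 6 genes grouped as giant or M-line (all but *dim-1*), 3 of 9 thick filament genes and 3 of 14 thin filament genes. The rest of the 19 were 6 of 9 attachment genes and both calcium channels. Over the 40 genes the median log2 fold change was 0.16, against 0.09 over all tested genes.

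The counts in the 4 other mutants were as follows. In *jmjd-1.2(zr1010)* 13 of the 40 were higher and 1 was lower than in N2, against 28.2% and 20.1% of all tested genes, and *ttn-1* alone passed the stricter call (8.15% of all genes as higher). In *jmjd-3.1/2/3* 5 were higher and 1 lower, against 27.1% and 19.6% of all genes, and 0 of 40 passed the stricter call as higher, against 9.87% of all genes. The quadruple mutant had 3 higher and 0 lower, against 24.8% and 9.88%, with 0 of 40 past the stricter call, against 7.08% as higher. The double mutant had 9 higher and 0 lower, against 33% and 22.1%, and *ttn-1* alone passed the stricter call, against 16.6% as higher. The shares of the set that were higher lay above that of all tested genes in *jmjd-5(zr1234)* and *jmjd-1.2(zr1010)* and below it in the 3 other mutants. Medians over the 40 genes were 0.07 in *jmjd-1.2(zr1010)*, -0.14 in *jmjd-3.1/2/3*, 0.04 in the quadruple and 0.06 in the double mutant, against 0.07, 0.01, 0.07 and 0.05 over all tested genes. These 5 comparisons share the same N2 samples, and their values stand side by side without a test of likeness. Without the summed N2 pair 14 of the 40 passed the test in *jmjd-5(zr1234)*, 5 in *jmjd-1.2(zr1010)*, 3 in *jmjd-3.1/2/3*, 0 in the quadruple and 3 in the double mutant. Without the 3 culture 2 libraries that stand apart, a choice made after seeing the data, 21 were higher and 9 lower in *jmjd-5(zr1234)*, 17 and 13 in *jmjd-1.2(zr1010)*, 11 and 5 in *jmjd-3.1/2/3*, 8 and 14 in the quadruple and 14 and 16 in the double mutant. The shares of all tested genes in these altered fits were not taken, so the counts do not tell whether the set or all genes moved.

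**Figure D1:**
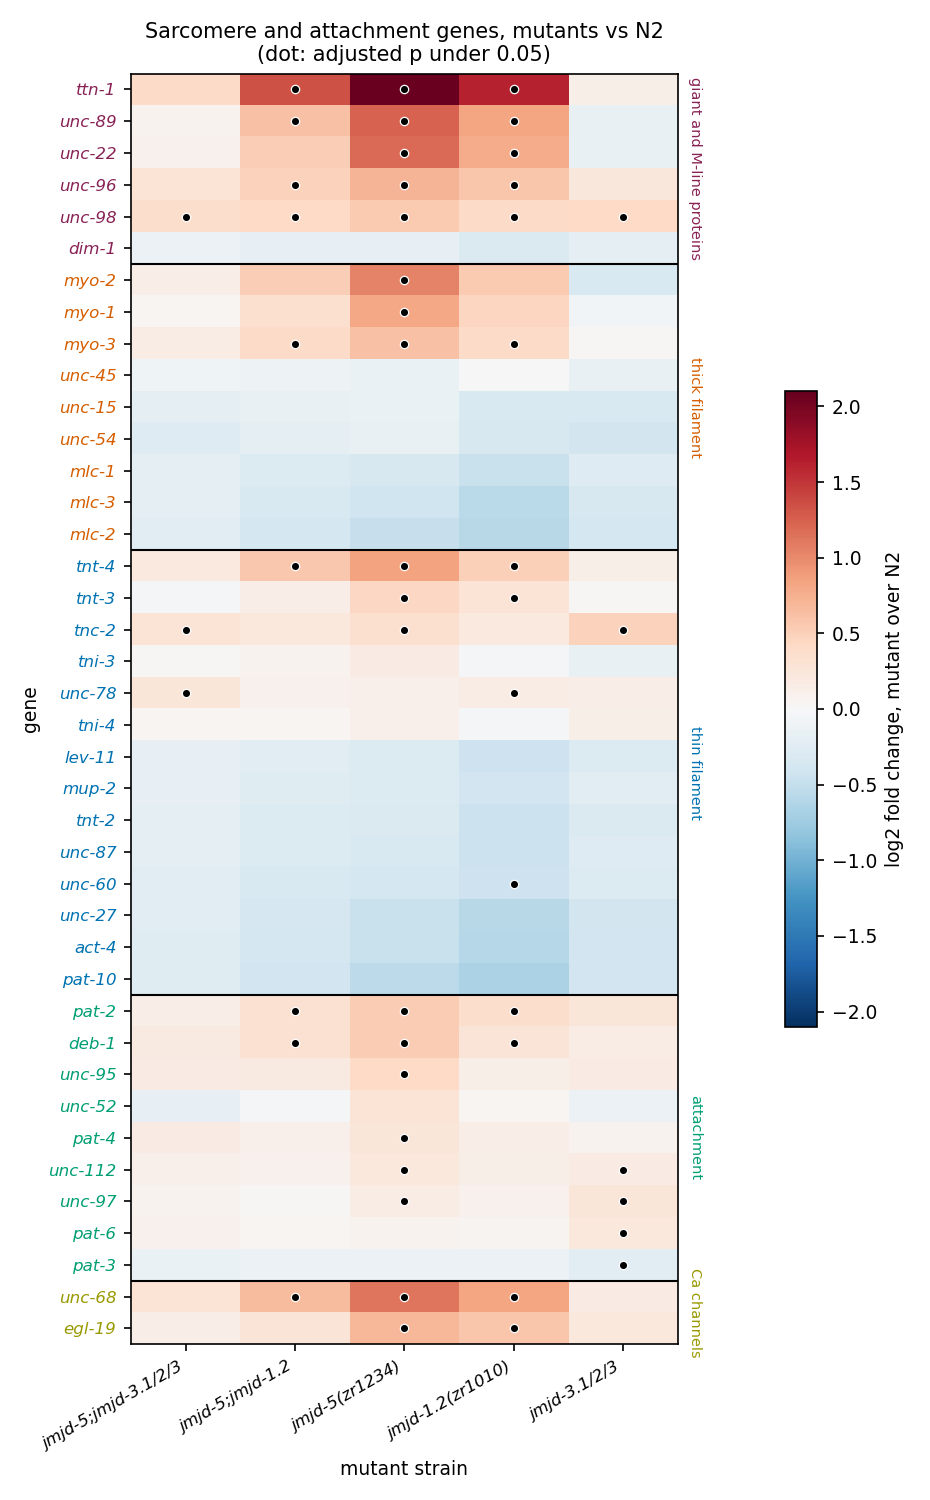
Log2 fold change of each of the 40 genes (rows, grouped by role) in the 5 mutants against N2 (columns), with a mark where edgeR's adjusted p was under 0.05. Giant and M-line genes and calcium channels show the strongest increases in *jmjd-5(zr1234)*, up to 2.08 for *ttn-1*, while 13 of the 23 thick and thin filament genes lie below 0 in all 5 columns under this TMM scaling, though not under cyclic loess normalization.

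Among the giant and M-line genes, *ttn-1*, which encodes a titin-like kinase of body wall muscle, had the highest fold change of the set. Its level was 296, 294 and 264 CPM in *jmjd-5(zr1234)*, against 75.9, 55.3 and 71.4 CPM in N2. In *jmjd-1.2(zr1010)* it was 209, 172, 229 and 213 CPM, and in *jmjd-3.1/2/3* 71.98, 47.6, 93.4 and 78.6 CPM. The lowest sample of *jmjd-5(zr1234)* was above every sample of the other strains, and every *jmjd-1.2(zr1010)* sample was above N2, whereas *jmjd-3.1/2/3* overlapped with N2 on both sides. The log2 fold change of *ttn-1* was 2.08 ± 0.23 (SE, edgeR adjusted p = 5.77e-07) in *jmjd-5(zr1234)* and 1.62 ± 0.22 (SE, edgeR adjusted p = 1.60e-05) in *jmjd-1.2(zr1010)*. In *jmjd-3.1/2/3* it was 0.12 ± 0.22 (SE, edgeR adjusted p = 0.664), which did not pass the test. The quadruple mutant had 99.9, 67.6, 118 and 65.9 CPM of *ttn-1* and the double mutant 219, 123, 181 and 156 CPM. All double mutant samples lay above N2, and 2 of the 4 quadruple mutant samples lay within the N2 range. Over N2 the difference was 1.34 ± 0.22 (SE, edgeR adjusted p = 3.22e-05) in the double mutant and 0.40 ± 0.22 (SE, edgeR adjusted p = 0.157) in the quadruple mutant. The calls in *jmjd-5(zr1234)*, *jmjd-1.2(zr1010)* and the double mutant held when any 1 of the 22 samples was left out.

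*unc-89* encodes an obscurin-like giant protein of the M-line. Its level was 725, 688 and 681 CPM in *jmjd-5(zr1234)*, against 305, 258 and 324 CPM in N2. It was 528, 475, 550.0 and 554 CPM in *jmjd-1.2(zr1010)* and 251, 173, 349.7 and 282 CPM in *jmjd-3.1/2/3*. The samples of both single mutants were all above N2, and those of *jmjd-3.1/2/3* spanned the N2 range, with culture 2 the lowest of all. The log2 fold change was 1.24 ± 0.24 (SE, edgeR adjusted p = 2.20e-04) in *jmjd-5(zr1234)*, 0.83 ± 0.23 (SE, edgeR adjusted p = 0.00666) in *jmjd-1.2(zr1010)* and -0.16 ± 0.23 (SE, edgeR adjusted p = 0.562) in *jmjd-3.1/2/3*. Levels of *unc-89* were 367, 227, 440.1 and 208 CPM in the quadruple mutant and 569, 399.6, 488 and 353 CPM in the double mutant. Every double mutant sample was above N2, and the quadruple mutant samples lay on both sides of it. On the log2 scale it differed from N2 by 0.62 ± 0.23 (SE, edgeR adjusted p = 0.0272) in the double mutant and 0.08 ± 0.23 (SE, edgeR adjusted p = 0.801) in the quadruple mutant, and the double mutant call was lost without its culture 1 or 3, without N2 culture 1 and without the summed N2 pair.

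*unc-22* encodes twitchin, a giant kinase bound along the thick filament. Twitchin RNA stood at 877, 887 and 823 CPM in *jmjd-5(zr1234)*, against 382, 329.5 and 427 CPM in N2. In *jmjd-1.2(zr1010)* it stood at 659.5, 621, 663 and 667 CPM, in *jmjd-3.1/2/3* at 316, 208, 444 and 389 CPM. All samples of both single mutants exceeded those of N2, by 1.19 ± 0.28 (SE, edgeR adjusted p = 0.00117) in *jmjd-5(zr1234)* and 0.78 ± 0.26 (SE, edgeR adjusted p = 0.0207) in *jmjd-1.2(zr1010)* on the log2 scale. The call in *jmjd-1.2(zr1010)* was lost without the summed N2 pair. Values in the quadruple mutant were 424, 309.9, 637 and 236 CPM and in the double mutant 688, 512, 606 and 376 CPM. Both compound mutants overlapped with N2, and neither passed the test (0.09 in the quadruple and 0.52 in the double mutant).

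The M-line proteins *unc-96* and *unc-98*, which link the integrin attachment to myosin, changed by less. *unc-98*, a zinc finger protein, was higher in all 5 mutants. It had 49.2, 41.3, 53.6 and 48.2 CPM in the quadruple mutant, 53.1, 44.2, 47.9 and 53.8 CPM in the double mutant and 56.9, 54.8 and 54.4 CPM in *jmjd-5(zr1234)*, against 39.8, 34.9 and 38.6 CPM in N2. In *jmjd-1.2(zr1010)* it had 50.9, 43.8, 49.1 and 55.5 CPM and in *jmjd-3.1/2/3* 54.4, 52.8, 48.1 and 46.2 CPM. Every one of the 19 mutant samples was above the highest N2 sample. The log2 fold change of *unc-98* was 0.37 in the quadruple mutant (edgeR adjusted p = 0.00458) and 0.56 in *jmjd-5(zr1234)* (edgeR adjusted p = 6.67e-05). In the other mutants it was 0.41 to 0.42. The quadruple mutant call of *unc-98* was lost without the summed N2 pair. *unc-96* was higher in *jmjd-5(zr1234)* (0.71), *jmjd-1.2(zr1010)* (0.58) and the double mutant (0.49). *dim-1*, an immunoglobulin-domain protein found near dense bodies, passed the test in none of the 5 comparisons with N2 by edgeR or DESeq2, nor at an unadjusted p under 0.05, with log2 fold changes of -0.30 to -0.12.

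**Figure D2:**
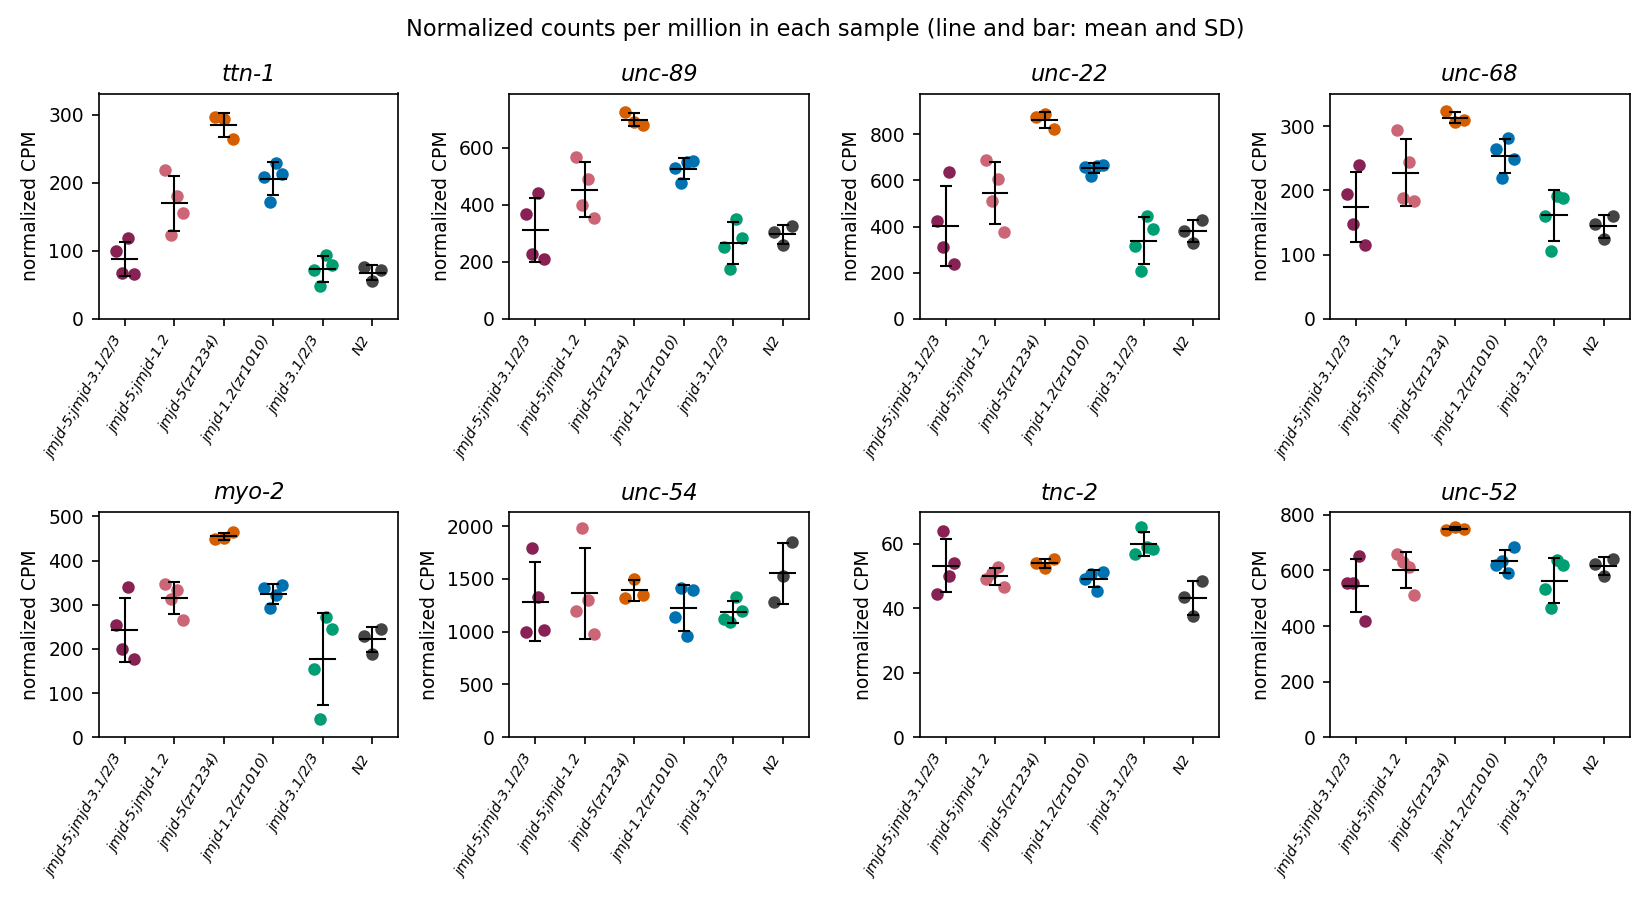
Normalized CPM of 8 genes by sample (points) with the strain mean and SD (bars), strains on the horizontal axis from *jmjd-5;jmjd-3.1/2/3* to N2. *ttn-1*, *unc-89*, *unc-22* and *unc-68* are highest in all 3 *jmjd-5(zr1234)* samples, *unc-54* overlaps between all strains, and 1 *jmjd-3.1/2/3* sample has 41.2 CPM of *myo-2* where the other 3 have 153 to 272 CPM.

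Both calcium channels were higher in *jmjd-5(zr1234)* and in *jmjd-1.2(zr1010)*. *unc-68* encodes the ryanodine receptor, which releases calcium from the sarcoplasmic reticulum. It had 323, 306 and 310.5 CPM in *jmjd-5(zr1234)*, against 148, 124 and 159.7 CPM in N2. Its levels were 265, 219, 281 and 249 CPM in *jmjd-1.2(zr1010)* and 160.0, 105, 191 and 188 CPM in *jmjd-3.1/2/3*. The single mutants did not overlap with N2, and 3 of the 4 *jmjd-3.1/2/3* samples were at or above the highest N2 sample while culture 2 was below all of N2. The log2 fold change was 1.13 ± 0.23 (SE, edgeR adjusted p = 2.80e-04) in *jmjd-5(zr1234)*, 0.82 ± 0.21 (SE, edgeR adjusted p = 0.00475) in *jmjd-1.2(zr1010)* and 0.17 in *jmjd-3.1/2/3*. In the quadruple mutant *unc-68* stood at 194, 147, 239 and 116 CPM and in the double mutant at 294, 189, 245 and 184 CPM. The double mutant lay wholly above N2 (0.67 ± 0.21 (SE, edgeR adjusted p = 0.0121)), a call lost without its culture 1 or the summed N2 pair, and the quadruple mutant overlapped with N2 (0.28). *egl-19*, the voltage-gated L-type channel of muscle, was higher in *jmjd-5(zr1234)* (0.69 ± 0.20 (SE, edgeR adjusted p = 0.00548)) and *jmjd-1.2(zr1010)* (0.59 ± 0.19 (SE, edgeR adjusted p = 0.0171)), and had 0.23 in *jmjd-3.1/2/3*, 0.15 in the quadruple and 0.28 in the double mutant without passing the test. Its call in *jmjd-1.2(zr1010)* was lost without the summed N2 pair or without N2 culture 3.

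Of the 9 thick filament genes, 3 myosin heavy chains were higher in *jmjd-5(zr1234)* and the main one of body wall muscle was not. That main chain, *unc-54*, had 1323, 1503 and 1350 CPM in *jmjd-5(zr1234)*, against 1277, 1525 and 1854 CPM in N2. It had 1138, 1415, 959 and 1395 CPM in *jmjd-1.2(zr1010)* and 1125, 1089, 1328 and 1198 CPM in *jmjd-3.1/2/3*. The quadruple mutant showed 995, 1796, 1328 and 1018 CPM and the double mutant 1192, 1979, 1298 and 982 CPM. Every strain overlapped with N2 for *unc-54* in at least 1 sample, with culture 2 the highest in both compound mutants. Its log2 fold changes were -0.16 ± 0.23 (SE, edgeR adjusted p = 0.562) in *jmjd-5(zr1234)*, -0.34 in *jmjd-1.2(zr1010)*, -0.39 in *jmjd-3.1/2/3*, -0.27 in the quadruple and -0.19 in the double mutant, and none passed the test by edgeR, by DESeq2 or at an unadjusted p under 0.05.

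*myo-3*, the minor body wall chain that starts the filament at its centre, was higher in *jmjd-5(zr1234)*, at 542, 542 and 543 CPM, against 331, 314 and 416 CPM in N2. All *jmjd-5(zr1234)* samples lay above N2 for *myo-3*. The log2 fold change was 0.62 ± 0.15 (SE, edgeR adjusted p = 0.00134), and it was 0.40 in *jmjd-1.2(zr1010)* and 0.40 in the double mutant, both past the test, and each of these 2 calls was lost when any 1 of 4 samples was left out. The pharyngeal chains *myo-1* and *myo-2* were higher in *jmjd-5(zr1234)* by 0.82 ± 0.27 (SE, edgeR adjusted p = 0.0128) and 1.04 ± 0.37 (SE, edgeR adjusted p = 0.0193). Neither call stood without the summed N2 pair. Paramyosin (*unc-15*), the core of the thick filament, and the myosin chaperone *unc-45* passed the test in none of the 5 comparisons by edgeR, with log2 fold changes of -0.32 to -0.15 and -0.16 to 0.00, and of the pair only *unc-45* in *jmjd-3.1/2/3* had an unadjusted p under 0.05. By DESeq2 *unc-45* was lower in *jmjd-5(zr1234)* (-0.19) and in *jmjd-3.1/2/3* (-0.19).

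The regulatory light chains *mlc-1* and *mlc-2* are near-identical neighbouring paralogs, and reads that matched both places had been discarded, so that their counts hold only reads that tell them apart. *mlc-1* had 126, 142 and 127 CPM in *jmjd-5(zr1234)*, 114, 143, 91.8 and 137 CPM in *jmjd-1.2(zr1010)* and 132, 141, 146 and 134 CPM in *jmjd-3.1/2/3*, against 137, 168 and 197 CPM in N2. Every mutant overlapped with N2 for *mlc-1*. Its compound mutant values were 102, 237, 135 and 124 CPM in the quadruple and 117, 201, 131 and 106 CPM in the double mutant. *mlc-2* had 125, 144 and 128 CPM in *jmjd-5(zr1234)*, 114, 147, 93.6 and 139 CPM in *jmjd-1.2(zr1010)* and 137, 150.2, 149 and 135 CPM in *jmjd-3.1/2/3*, against 148, 188 and 221 CPM in N2. In the quadruple mutant *mlc-2* had 103, 268, 138 and 131 CPM and in the double mutant 117, 223, 130.3 and 107 CPM. For both paralogs the highest value of all 22 samples was culture 2 of the quadruple mutant, and only *mlc-2* separated from N2, lying below it in all samples of *jmjd-5(zr1234)* and *jmjd-1.2(zr1010)*. Log2 fold changes were -0.34 and -0.48 in *jmjd-5(zr1234)* and -0.46 and -0.59 in *jmjd-1.2(zr1010)*, with adjusted p of 0.0918 and 0.058 by edgeR in *jmjd-1.2(zr1010)*. By DESeq2 *mlc-2* was lower in *jmjd-1.2(zr1010)* (-0.63). The essential light chain *mlc-3* followed at -0.42 in *jmjd-5(zr1234)* and -0.56 in *jmjd-1.2(zr1010)*, also without passing the test.

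Of the 14 thin filament genes, 3 were higher and 0 lower in *jmjd-5(zr1234)*. Tropomyosin (*lev-11*), which covers actin along the filament, had 338, 388 and 345 CPM in *jmjd-5(zr1234)*, against 360.5, 434 and 510.2 CPM in N2. It had 309, 358, 259.9 and 367 CPM in *jmjd-1.2(zr1010)* and 345, 355, 381 and 348 CPM in *jmjd-3.1/2/3*. In the quadruple mutant *lev-11* had 276, 597, 353 and 325 CPM and in the double mutant 313, 524, 346 and 294 CPM. The strains overlapped, with culture 2 of both compound mutants above every N2 sample. Its log2 fold change was -0.28 ± 0.23 (SE, edgeR adjusted p = 0.274) in *jmjd-5(zr1234)* and between -0.43 and -0.17 in the other mutants, and none passed the test by edgeR, by DESeq2 or at an unadjusted p under 0.05.

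*unc-60*, an actin-severing protein of the ADF/cofilin family, was the only gene of the set that was lower in *jmjd-1.2(zr1010)* by edgeR. It had 178, 214, 155 and 206 CPM in *jmjd-1.2(zr1010)*, against 213, 259.6 and 289 CPM in N2. Culture 2 of *jmjd-1.2(zr1010)* lay within the N2 range and the other 3 below it. This was a log2 fold change of -0.43 ± 0.17 (SE, edgeR adjusted p = 0.0473), and the call was lost when any 1 of 16 of the 22 samples was left out. Elsewhere *unc-60* had 186, 212 and 193 CPM in *jmjd-5(zr1234)*, 196, 208, 219 and 206 CPM in *jmjd-3.1/2/3*, 164, 309.9, 203 and 195 CPM in the quadruple and 175, 273, 193 and 171 CPM in the double mutant. Its log2 fold change there was -0.36 to -0.23 and did not pass the test.

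*tnc-2*, the troponin C of the pharynx, was higher in 3 of the 5 mutants. It had 44.5, 64.0, 50.1 and 53.9 CPM in the quadruple mutant, 53.9, 52.4 and 55.3 CPM in *jmjd-5(zr1234)* and 56.8, 65.1, 58.9 and 58.4 CPM in *jmjd-3.1/2/3*, against 43.6, 37.6 and 48.3 CPM in N2. The values were 48.9, 50.9, 52.8 and 46.6 CPM in the double mutant and 49.1, 50.7, 45.4 and 51.3 CPM in *jmjd-1.2(zr1010)*. All samples of *jmjd-5(zr1234)* and *jmjd-3.1/2/3* were above N2, and culture 1 of the quadruple mutant was within the N2 range. Log2 fold changes of *tnc-2* were 0.49 ± 0.10 (SE, edgeR adjusted p = 4.06e-04) in *jmjd-3.1/2/3*, 0.34 ± 0.10 (SE, edgeR adjusted p = 0.00666) in *jmjd-5(zr1234)* and 0.29 ± 0.10 (SE, edgeR adjusted p = 0.0256) in the quadruple mutant. The last 2 calls were lost without the summed N2 pair.

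Of the 4 troponin T genes 2 were higher in *jmjd-5(zr1234)*. *tnt-3* and the pharyngeal *tnt-4* were higher (0.43 and 0.84), while *tnt-2* and *mup-2*, the troponin T of body wall muscle that embryonic muscle needs, had -0.31 and -0.28 without passing the test. In *jmjd-1.2(zr1010)* *tnt-3* (0.28) and *tnt-4* (0.50) were higher too, and *tnt-4* was also higher in the double mutant (0.56). None of these 3 calls stood without the summed N2 pair. Troponin I genes *tni-3*, *tni-4* and *unc-27* passed the test in none of the 5 comparisons by edgeR or DESeq2, and of them only *unc-27* in *jmjd-1.2(zr1010)* had an unadjusted p under 0.05. *unc-78*, the actin-interacting protein that works with cofilin, was higher in *jmjd-1.2(zr1010)* (0.16) and in the quadruple mutant (0.25). Its call in *jmjd-1.2(zr1010)* was lost when any 1 of 12 of the 22 samples was left out, and that in the quadruple mutant without the summed N2 pair. The actin *act-4*, the troponin C of body wall muscle *pat-10* and the calponin-like *unc-87* had log2 fold changes of -0.66 to -0.20 in the 5 mutants and did not pass the test by edgeR. By DESeq2 these 3 and *tnt-2* were lower in *jmjd-1.2(zr1010)*. Reads shared between *act-4* and the other muscle actins had been discarded, so that its count is uncertain.

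The attachment genes changed by less than 0.6 on the log2 scale. The most counted of them, *unc-52*, encodes perlecan, the proteoglycan of the muscle basement membrane. It had 745, 755 and 751 CPM in *jmjd-5(zr1234)*, against 624, 579 and 642 CPM in N2. In *jmjd-1.2(zr1010)* perlecan RNA was 619.7, 635, 589 and 685 CPM and in *jmjd-3.1/2/3* 532, 463, 636 and 620.4 CPM. The *jmjd-5(zr1234)* samples were all above N2, but at 0.29 ± 0.14 (SE, edgeR adjusted p = 0.0734) the gene missed the threshold over all genes. Quadruple mutant samples had 554, 556, 653 and 419.5 CPM of *unc-52* and double mutant samples 659.7, 631, 611 and 511 CPM. Both compound mutants overlapped with N2, with log2 fold changes of -0.17 in the quadruple and -0.03 in the double mutant.

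The integrin subunits passed the test in different strains. The alpha subunit *pat-2* was higher in *jmjd-5(zr1234)* (0.54 ± 0.12 (SE, edgeR adjusted p = 5.33e-04)), *jmjd-1.2(zr1010)* (0.37) and the double mutant (0.33), where the last 2 calls were lost without the summed N2 pair. In *jmjd-3.1/2/3* *pat-2* had 0.26 (edgeR adjusted p = 0.0554). The beta subunit *pat-3* was lower in *jmjd-3.1/2/3*, at 199, 187, 217 and 211 CPM, against 225, 245 and 245 CPM in N2. No *jmjd-3.1/2/3* sample reached the lowest N2 sample for *pat-3*. The log2 fold change was -0.23 ± 0.07 (SE, edgeR adjusted p = 0.0182), and under cyclic loess normalization it was 0.025, so that its direction depends on the scaling. The call was lost when any 1 of 4 samples was left out. *pat-3* had 209.6, 223, 229.6 and 206 CPM in the quadruple mutant, 209.6, 244, 222 and 198 CPM in the double mutant, 215, 221 and 219 CPM in *jmjd-5(zr1234)* and 216, 226, 207 and 224 CPM in *jmjd-1.2(zr1010)*. In those 4 strains its log2 fold change was -0.13 to -0.12, and none passed the test.

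Among the adaptors behind integrin, 5 were higher in *jmjd-5(zr1234)* and parvin (*pat-6*, 0.08, edgeR adjusted p = 0.284) did not pass the test. The 5 were vinculin (*deb-1*, 0.54), the LIM domain protein *unc-95* (0.41), integrin-linked kinase (*pat-4*, 0.26), kindlin (*unc-112*, 0.22) and PINCH (*unc-97*, 0.16). The calls of *unc-112* and *unc-97* were lost when any 1 of 3 and of 7 samples was left out. Parvin passed the test in *jmjd-3.1/2/3* (0.21), along with *unc-112* (0.18) and *unc-97* (0.26) in that strain. There the call of *unc-112* was lost in 9 of the 22 fits that left out 1 sample and that of *pat-6* in 2. Vinculin was also higher in *jmjd-1.2(zr1010)* (0.28) and the double mutant (0.32), and in *jmjd-1.2(zr1010)* its call was lost when any 1 of 11 samples was left out.

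Of the 5 genes of pharyngeal muscle, which are *myo-1*, *myo-2*, *tnt-4*, *tni-4* and *tnc-2*, 4 were higher in *jmjd-5(zr1234)*, against 35.8% of all tested genes. In each other mutant 1 of the 5 was higher, against 24.8% to 33% of all tested genes. *myo-2* had 448, 451 and 465 CPM in *jmjd-5(zr1234)*, against 230.1, 189 and 245 CPM in N2. In *jmjd-3.1/2/3* it had 153, 41.2, 272 and 244 CPM. Culture 2 of *jmjd-3.1/2/3* had the lowest level of *myo-2* of all 22 samples, and it was also the lowest for *myo-1* (86.1 CPM) and *tnt-4* (38.2 CPM), but the highest of its strain for *tnc-2* and *tni-4*. Other markers of the pharynx (*pha-4*, *ceh-22*, *phat-1*, *phat-3*, *abu-14* and *pqn-2*) summed to 42.9 CPM in that sample and to 115 to 144 CPM in the other 3 of its strain. Over the strains their sum was 69.8 to 125 CPM in the quadruple mutant, 103 to 182 CPM in the double mutant, 133 to 181 CPM in *jmjd-5(zr1234)*, 109 to 162 CPM in *jmjd-1.2(zr1010)* and 36.6 to 62.6 CPM in N2. Of the 6 markers 4 were higher in *jmjd-5(zr1234)*, against 35.8% of all tested genes, and their median there was 1.34 on the log2 scale. None was at 0 counts throughout, with raw counts of 3 to 38 for *ceh-22* and 65 to 1054 for *abu-14*. The part of these markers in the levels of the pharyngeal muscle genes was not tested.

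A group of members had counts that followed the depth of their library only weakly. Within strains, the log2 raw count of 14 of the 40 genes rose by 0.21 to 0.59 for each doubling of the library total, and that of the other 26 by 0.90 to 1.59. The 14 are *act-4*, *dim-1*, *lev-11*, *mlc-1*, *mlc-2*, *mlc-3*, *mup-2*, *pat-10*, *tnt-2*, *unc-15*, *unc-27*, *unc-54*, *unc-60* and *unc-87*. Raw counts of *pat-10* stayed between 838 and 1041 and those of *act-4* between 1547 and 2148 over the 24 libraries, whose totals differed 3.21-fold. Over the same libraries raw counts of *pat-6* ran between 308 and 1001 and those of *ttn-1* between 185 and 2449. A slope under 0.6, a limit set after seeing these values, was found in 4.06% of all tested genes. By mean count it was found in 6.26% of genes with 300 to 1000 counts, in 15.0% of those with 1000 to 3000 and in 28.4% of those above 3000. PCR duplicates had been removed by the authors before counting, a step that keeps 1 read of those at the same place, and its part in these slopes was not tested.

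**Figure D3:**
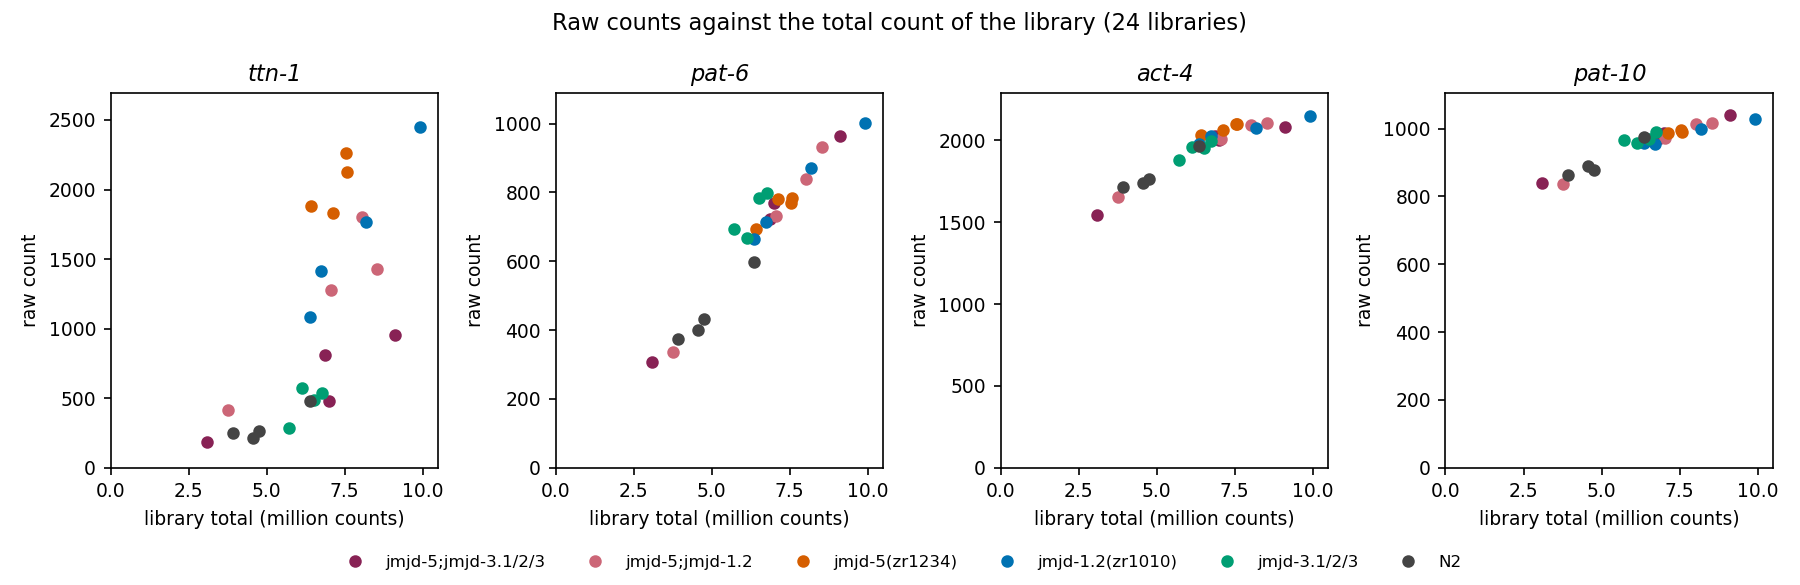
Raw counts (vertical) against the library total (horizontal) for *ttn-1*, *pat-6*, *act-4* and *pat-10* in the 24 libraries, coloured by strain. Counts of *pat-10* stay between 838 and 1041 at every depth, whereas those of *pat-6* and *ttn-1* climb with the total.

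For the 14 genes with a shallow slope, CPM thus fell as depth rose within a strain, and N2 had the lowest median library total of the 6 strains, 4666505 counts. All 14 had their highest strain mean in N2 and a negative log2 fold change in all 5 comparisons, with medians of -0.33 in *jmjd-5(zr1234)*, -0.45 in *jmjd-1.2(zr1010)*, -0.31 in *jmjd-3.1/2/3*, -0.20 in the quadruple and -0.28 in the double mutant. Of these values only *unc-60* in *jmjd-1.2(zr1010)* passed the test by edgeR. Under cyclic loess normalization 7 of the 14 were negative in *jmjd-5(zr1234)*, 12 in *jmjd-1.2(zr1010)*, 7 in *jmjd-3.1/2/3* and 9 in each compound mutant. With the log2 library total as a term, 11 of the 14 stayed negative in *jmjd-5(zr1234)* and all 14 in each of the 4 other mutants. In *jmjd-5(zr1234)* *act-4* then had a log2 fold change of -0.13, *pat-10* of -0.19 and *unc-54* of 0.10, while *ttn-1* had 2.00 and all 19 genes called higher were still called. A summed pair entered this term with the total of both its libraries, although each N2 library of its pair was shallow (4764459 and 4568551 counts). The term therefore did not adjust for the depth of single libraries, and the part of that depth in these values was not tested.

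The same term added 8 lower calls in *jmjd-1.2(zr1010)*, 10 in *jmjd-3.1/2/3*, 2 in the quadruple and 8 in the double mutant, all of them among the 14, and it added 0 in *jmjd-5(zr1234)*. *act-4* was among them in all 4 of these mutants, and *mlc-2*, *mlc-3*, *pat-10*, *tnt-2*, *unc-27*, *unc-60* and *unc-87* in 3. For the 26 genes with a steeper slope the median on the log2 scale was 0.48 in *jmjd-5(zr1234)*, 0.28 in *jmjd-1.2(zr1010)*, 0.12 in *jmjd-3.1/2/3*, 0.14 in the quadruple and 0.25 in the double mutant. All but *tni-4* (0.90) and *tnc-2* (0.97) had a slope above 1, so that their share of the library total rose with depth within a strain. The slope was 1.59 for *ttn-1*, 1.46 for *unc-89*, 1.43 for *unc-68* and 1.33 for *unc-22*, against a median of 1.29 over all tested genes. N2 was the strain of lowest median depth, and the part of these slopes in the increases over N2 was not tested.

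**Figure D4:**
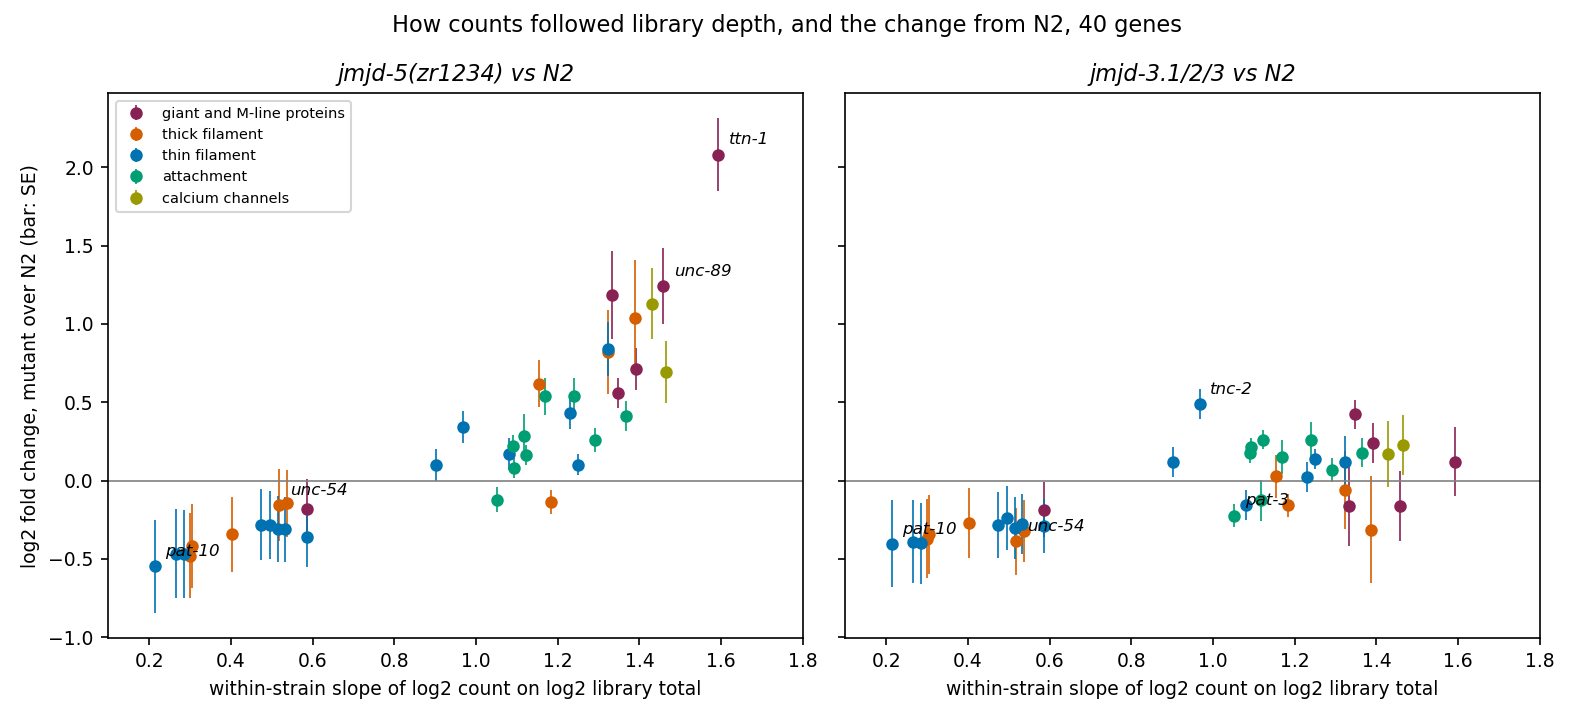
Within-strain slope of the log2 raw count on the log2 library total (horizontal) and log2 fold change over N2 (vertical) of the 40 genes, for *jmjd-5(zr1234)* and *jmjd-3.1/2/3*. The 14 genes with slopes under 0.6 lie below 0 in both panels under TMM scaling, whereas 7 of them do so under cyclic loess, and the highest point in *jmjd-5(zr1234)* is *ttn-1* at a slope of 1.59 and a log2 fold change of 2.08.

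The compound mutants were then set against *jmjd-5(zr1234)* itself, to ask whether further loss of demethylases altered these genes. In the quadruple mutant 13 of the 40 were lower and 0 higher than in *jmjd-5(zr1234)*, against 9.71% and 8.68% of all tested genes. *ttn-1*, *unc-89* and *unc-22* passed the stricter call as lower, which 0.582% of all genes did. *ttn-1* had 99.9, 67.6, 118 and 65.9 CPM in the quadruple mutant, against 296, 294 and 264 CPM in *jmjd-5(zr1234)*. No sample of the quadruple mutant reached the lowest *jmjd-5(zr1234)* sample for *ttn-1*, *unc-89* or *unc-22*. The log2 fold changes were -1.68 ± 0.21 (SE, edgeR adjusted p = 2.96e-05) for *ttn-1* and -1.16 ± 0.22 (SE, edgeR adjusted p = 0.00213) for *unc-89*, and *unc-22* stood at 0.467 times its *jmjd-5(zr1234)* level (edgeR adjusted p = 0.0078). The others of the 13 were *unc-96* (-0.43), *myo-1* (-0.78), *myo-3* (-0.46), *tnt-3* (-0.46), *tnt-4* (-0.63), *unc-52* (-0.46), *pat-2* (-0.40), *deb-1* (-0.35), *unc-68* (-0.84) and *egl-19* (-0.55). The calls of *ttn-1*, *unc-89*, *unc-22*, *unc-68* and *tnt-3* held whichever sample was left out, and 5 to 15 of the 40 passed over all such fits. In the fits without the 3 culture 2 libraries 14 were lower and 1 higher. Fewest passed without a sample of *jmjd-5(zr1234)*, at 6 without culture 1, 8 without culture 2 and 5 without the summed pair, and 6 passed without culture 4 of the quadruple mutant.

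In the double mutant 0 of the 40 differed from *jmjd-5(zr1234)* by edgeR's adjusted p, against 1.09% of all genes higher and 1.7% lower. Of the 40, 9 were lower at an unadjusted p under 0.05 and 1 was lower by DESeq2, for which the shares of all genes were not taken. *ttn-1* had 219, 123, 181 and 156 CPM in the double mutant, against 296, 294 and 264 CPM in *jmjd-5(zr1234)*. All 4 double mutant samples were below all 3 of *jmjd-5(zr1234)*, with a log2 fold change of -0.74 ± 0.20 (SE, edgeR adjusted p = 0.0522). For *unc-89* it was -0.62 ± 0.22 (SE, edgeR adjusted p = 0.157) and for *unc-68* -0.46 ± 0.21 (SE, edgeR adjusted p = 0.298). The 1 gene lower by DESeq2 was *ttn-1* (-0.73). Without the 3 culture 2 libraries that stand apart *ttn-1*, *myo-1* and *tnt-3* were lower. Of the 14 genes with shallow slopes 2 were negative against *jmjd-5(zr1234)* in each compound mutant. With the log2 library total as a term, where a summed pair counts with both its libraries, all 14 were negative in both. They were so too without the 3 culture 2 libraries, so that their direction in these comparisons depends on the setting.

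**Figure D5:**
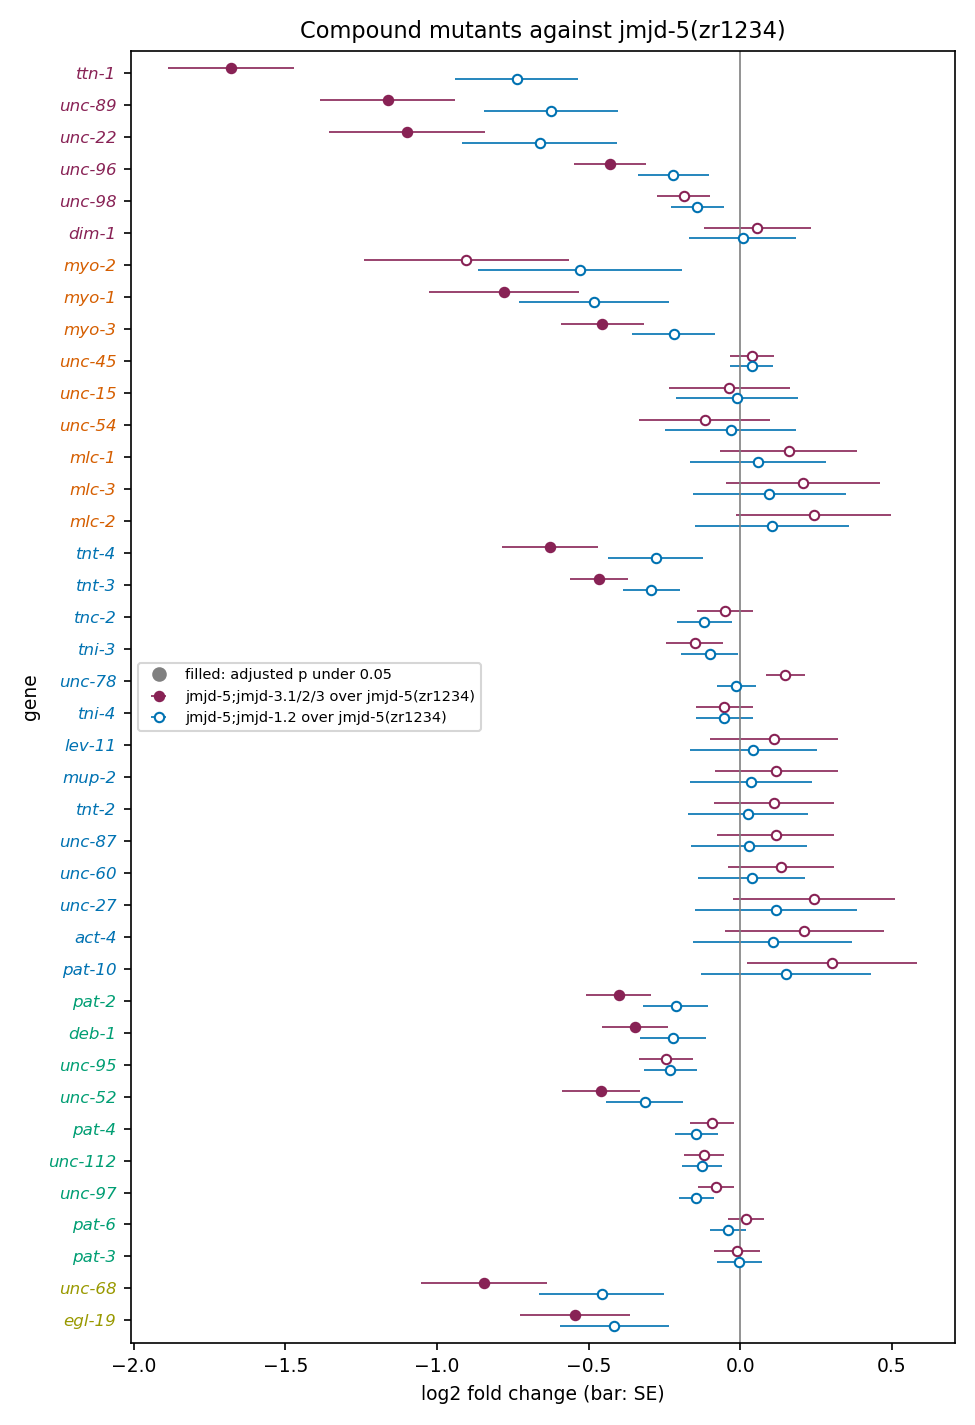
Log2 fold change over *jmjd-5(zr1234)* (horizontal, with SE bars) of the 40 genes (rows) in the quadruple and the double mutant. Values reach -1.68 for *ttn-1* in the quadruple mutant and -0.74 in the double mutant, and the 14 genes with shallow slopes lie between -0.12 and 0.30, although all 14 lie below 0 with the library total as a term or without the 3 culture 2 libraries.

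Interaction terms tested whether the effect of *jmjd-5* loss differed with the other demethylase genes lost. With *jmjd-3.1/2/3*, 16 of the 40 had a negative interaction at an adjusted p under 0.05 and 0 a positive one, against 29.4% and 22.7% of all tested genes. The strongest were *ttn-1* (-1.80 ± 0.30 (SE, edgeR adjusted p = 7.65e-05)) and *unc-68* (-1.01 ± 0.30 (SE, edgeR adjusted p = 0.00801)). For *ttn-1* the log2 effect of *jmjd-5(zr1234)* was 2.08 over N2, while the quadruple mutant had 0.40 and the triple mutant 0.12 over N2. With *jmjd-1.2*, 17 of the 40 had a negative and 0 a positive interaction, against 20.9% and 12.7% of all genes. There *ttn-1* (-2.35 ± 0.30 (SE, edgeR adjusted p = 2.13e-05)) and *unc-89* (-1.46 ± 0.32 (SE, edgeR adjusted p = 0.00288)) were the strongest. *ttn-1* was higher in each single mutant (2.08 and 1.62), and the double mutant had 1.34 over N2. The interactions of *ttn-1*, *unc-68* and *unc-89* held when any 1 sample was left out. Calls for the 40 genes then numbered 13 to 18 with *jmjd-3.1/2/3* and 9 to 20 with *jmjd-1.2*, and the 9 were those without the summed N2 pair, while 10 were left without the summed *jmjd-5(zr1234)* pair.

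Beyond the set, 62 other muscle genes chosen by name were read in the same way, of which 59 were tested. In *jmjd-5(zr1234)* 35 were higher and 2 lower, against 35.8% and 26.2% of all tested genes, with a median of 0.36. In *jmjd-1.2(zr1010)* the counts were 27 and 5, against 28.2% and 20.1%, and in *jmjd-3.1/2/3* 16 and 2, against 27.1% and 19.6%. The quadruple mutant had 10 and 1, against 24.8% and 9.88%, and the double mutant 20 and 4, against 33% and 22.1%. Past the stricter call in *jmjd-5(zr1234)* were 5 of the 59, against 16.1% of all tested genes. They were *lim-8*, a LIM domain protein (log2 fold change 1.75), *pat-9*, a zinc finger protein (1.64), *unc-49*, a GABA receptor of muscle (1.08), the myosin *hum-6* (1.08), and *dyb-1*, dystrobrevin, with a value between those of *pat-9* and *unc-49*. *pat-9* also passed it in *jmjd-1.2(zr1010)* (1.54), *jmjd-3.1/2/3* (1.13) and the double mutant (1.61), and *lim-8* in both compound mutants (1.25 in the quadruple and 1.49 in the double). Between the quadruple mutant and *jmjd-5(zr1234)*, 22 of the 59 were lower and 0 higher, against 9.71% and 8.68% of all genes.

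Genes for very large proteins outside the contractile apparatus were listed after the values of *ttn-1*, *unc-89* and *unc-22* had been seen, and are given as a description. The median over 17 such genes was 0.26 in *jmjd-5(zr1234)*, 0.21 in *jmjd-1.2(zr1010)*, -0.20 in *jmjd-3.1/2/3*, -0.12 in the quadruple and 0.08 in the double mutant. In *jmjd-5(zr1234)* they ran between -0.19 (*cdh-4*) and 1.58 (*dig-1*), and in the quadruple mutant against *jmjd-5(zr1234)* their median was -0.42.

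Markers of body wall muscle and of other tissues were read beside the set. Of all tested genes 24.8% to 35.8% were higher and 9.88% to 26.2% lower over the 5 comparisons with N2. The 8 other body wall muscle markers are all also among the other muscle genes above, so they are no separate observation. Of these 8, 7 were tested, and 4 were higher and 0 lower in *jmjd-5(zr1234)*, with a median of 0.48 and a range of -0.47 to 0.74 on the log2 scale. In *jmjd-1.2(zr1010)* 4 were higher and 1 lower, with a median of 0.50, and in *jmjd-3.1/2/3* 4 were higher, with a median of 0.36. Their summed level was 748 to 791 CPM in *jmjd-5(zr1234)*, against 684 to 867 CPM in N2. The 10 germline markers summed to 1965 to 3151 CPM in the mutants, against 2671 to 3362 CPM in N2, with medians of the log2 fold change of -0.43 to -0.33. Of them 3 were lower in the quadruple mutant and 7 in *jmjd-5(zr1234)*. Oocyte and eggshell markers had medians of -0.66 to -0.33 and summed to 2955 to 3181 CPM in *jmjd-5(zr1234)*, against 4005 to 5430 CPM in N2. Hypodermal markers had medians of 0.85 to 1.26, with 7 of 10 higher in each mutant, and summed to 1007 to 1085 CPM in *jmjd-5(zr1234)*, against 687 to 935 CPM in N2. Neuronal markers had a median of 0.39 and sperm markers of 0.43 in *jmjd-5(zr1234)*. Intestinal markers had medians of -0.12 to 0.02, with members between -0.67 and 0.80 in *jmjd-5(zr1234)*, where 2 of 10 were higher and 0 lower. They summed to 3053 to 3480 CPM in *jmjd-5(zr1234)*, against 3483 to 5376 CPM in N2, without overlap. Over the 24 libraries, whose totals differed 3.21-fold, raw counts of *vit-2* in this sum stayed between 7576 and 8825. Those of *vit-5* stayed between 4275 and 5599, and those of the oocyte and eggshell marker *cpg-2* between 2120 and 2963. Those of *col-19* in the hypodermal sum stayed between 1464 and 1686. Raw counts of *elt-2*, by contrast, ran between 91 and 420. N2 had the lowest median depth, and the part of depth in the marker sums was not tested. Of all markers 1, the sperm gene *ssp-9*, was at 0 in all 24 libraries. The part of tissue make-up in the levels of the 40 genes was not tested.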

How the data were processed

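RNA of whole young adults was sequenced by the authors in 24 libraries of 6 strains. Per the study's methods, STAR alignments to ce10 were cleared of multimapping reads and, by samblaster, of PCR duplicates, featureCounts assigned the rest to genes, and the authors deposited raw counts per gene and library. The deposited tables of the study's own comparisons (fold changes and adjusted p-values) and the ChIP-seq peak lists were not used.

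Counts were analysed here with edgeR 4.0.16 in R 4.3.3 (filterByExpr, TMM, the quasi-likelihood test, and 1 fit of all 22 samples on strain). Benjamini-Hochberg adjustment ran over all 15641 tested genes. Interactions were contrasts of the same fit. Libraries of 1 strain with a mean chi-square per gene under 1.1, over genes with at least 10 counts in the pair, were summed. Within-strain slopes came from a regression of log2 counts on log2 library totals. Library totals ranged from 3087933 to 9906241 counts. Where the library total was a term of the fit, a summed pair entered with the total of both its libraries. The scripts were tested on simulated data. Nothing in the labels says more of the cultures than their number, so p-values measure the spread between these samples.

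Every sample's value is given for the member with most CPM in each role, the 2 largest increases and decreases past the test in each comparison with N2, the 2 largest interactions, and *mlc-1* and *mlc-2*. The levels of *myo-2* and *myo-3* were added after their values were seen. Genes, lists and tests were chosen with earlier results of these data known. Gene names matched a RefSeq table of WBcel235 for 38843 of 42048 genes, which served for names and neighbours only. Alternatives were DESeq2 1.42.0, other scalings (RLE, upper quartile, cyclic loess with limma 3.58.1), no filter beyond 1 count, a filter of 1 CPM in 3 samples, only the strains compared, the library total as a term, 24 separate libraries, a replicate block, a test against a log2 value of 1, each sample left out, and, added after seeing the data, the 3 culture 2 libraries left out.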

Additional observations from a re-analysis of the deposited data

Results flagged for a closer look

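The interaction terms, by edgeR's quasi-likelihood test, differed from 0 for the genes named by the rule. The effect of *jmjd-5* loss on *ttn-1* was smaller with *jmjd-3.1/2/3* lost as well (log2 interaction -1.80), and so was that on *unc-68* (-1.01). With *jmjd-1.2* lost as well, the interaction was -2.35 for *ttn-1* and -1.46 for *unc-89*.

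Of 52 groups of 4 samples checked with Dixon's ratio, 1 was past the critical value for that size, where chance gives about 1 in 20. Culture 2 of *jmjd-1.2(zr1010)* had 621 CPM of *unc-22*, and the other 3 cultures had 659.5 to 667 CPM, which gives a ratio of 0.83.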

How the results depend on the processing

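Counts below are members past the test, with those higher and lower in brackets where both occur. Shares of all tested genes were taken in the main fit only, so these counts do not tell whether the set or all genes moved. N2 had the lowest median depth, and the number of lower calls moved most between settings. Each count against N2 dropped without the summed N2 pair, and 3 or 4 samples a strain limit the precision. The cause of each shift was not tested.

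In *jmjd-5(zr1234)* against N2 the 19 became 33 (21 and 12) with only the strains compared and 30 (21 and 9) without the 3 libraries that stand apart. All 19 were kept there, with the library total as a term and with 24 separate libraries. In *jmjd-1.2(zr1010)* the 14 became 25 (14 and 11) with only the strains compared, 22 (14 and 8) with 24 separate libraries, 23 (14 and 9) with the library total and 30 (17 and 13) without the 3 libraries. In *jmjd-3.1/2/3* the 6 became 11 under cyclic loess, 19 (6 and 13) with only the strains compared, 17 (6 and 11) with the library total and 16 (11 and 5) without the 3 libraries. In the quadruple mutant the 3 became 7 with upper-quartile factors, 9 under cyclic loess, 5 (3 and 2) with the library total and 22 (8 and 14) without the 3 libraries. In the double mutant the 9 became 15, 18, 18 (10 and 8) and 30 (14 and 16) under these 4 settings. Against *jmjd-5(zr1234)* the double mutant's 0 became 1, *ttn-1*, with DESeq2, RLE, cyclic loess, no filter, 24 separate libraries or the library total, and 3 without the 3 libraries. Upper-quartile factors moved the median log2 fold change of all genes to 0.21 in *jmjd-5(zr1234)* (TMM 0.09), 0.18 in *jmjd-1.2(zr1010)* (TMM 0.07) and 0.12 in *jmjd-3.1/2/3* (TMM 0.01). *pat-3* in *jmjd-3.1/2/3* turned to 0.025 under cyclic loess (adjusted p = 0.75, limma). Tested against a log2 value of 1, the 4 stricter calls in *jmjd-5(zr1234)* became 1 (*ttn-1*), the 1 in the double mutant became 0, and so did the 3 of the quadruple mutant against *jmjd-5(zr1234)*.

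With a sample left out, counts ranged over 14 to 22 in *jmjd-5(zr1234)*, 5 to 25 in *jmjd-1.2(zr1010)*, 3 to 9 in *jmjd-3.1/2/3*, 0 to 15 in the quadruple and 3 to 23 in the double mutant. They ranged over 5 to 15 for the quadruple and 0 to 3 for the double mutant against *jmjd-5(zr1234)*, and over 9 to 20 for the interaction with *jmjd-1.2* and 13 to 18 for that with *jmjd-3.1/2/3*. The lowest counts against N2 were those without the summed N2 pair. In *jmjd-1.2(zr1010)* the count was 9 without its culture 1 and 25 without culture 2 of the quadruple mutant. In the quadruple mutant it was 15 (5 and 10) without its culture 2 and 6 without culture 2 of *jmjd-3.1/2/3*. In the double mutant it was 4 without its culture 1 and 23 (11 and 12) without its culture 2, and against *jmjd-5(zr1234)* it was 3 without culture 2 of *jmjd-3.1/2/3*.

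Replicate numbers were not taken as pairs in the main fit, since the labels tie them to nothing. Over 60 pairs of same-numbered libraries, 29 correlations of deviations from strain means exceeded 0.1 (-0.26 to 0.62, median 0.10). These were 11 of 15 for number 1, 11 for number 2, 3 for number 3 and 4 for number 4. Of the 24 libraries 12 correlated best with their own number, which is 1 of 4 numbers. Some likeness by number is thus seen in the data, mostly for numbers 1 and 2, and the main fit leaves it out. With a replicate block and 24 separate libraries the counts were 31 (20 and 11) in *jmjd-5(zr1234)*, 27 (15 and 12) in *jmjd-1.2(zr1010)*, 14 (8 and 6) in *jmjd-3.1/2/3*, 6 in the quadruple and 19 (11 and 8) in the double mutant. They were 5 for the double mutant against *jmjd-5(zr1234)*, 27 (8 and 19) for the interaction with *jmjd-1.2* and 25 (7 and 18) for that with *jmjd-3.1/2/3*.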
